A study of Mus musculus with 8 samples.

Results

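The 2 libraries compared here were made from mouse fetal liver erythroid progenitors carrying hairpin 1 or hairpin 2 against Bloodlinc, the long noncoding RNA also called alncRNA-EC7. They are 2 of the 8 libraries of the study, and were taken by their labels, 1 library per hairpin. Every gene of the count tables entered the contrast. The direct question is how far the transcriptomes obtained with 2 different hairpins against the same RNA lay apart.

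Both cultures came from C57BL/6 embryos at stage E14.5. Progenitors were isolated by magnetic sorting, transduced with a short hairpin RNA, and grown for 24 h in medium with erythropoietin, the hormone that drives red cell production. The 6 other libraries carried a control hairpin of the Bloodlinc experiment, a control hairpin and 2 hairpins of the hnRNPU experiment, an empty expression vector, or a Bloodlinc expression vector, in the same strain, stage and culture. The labels give neither the number of embryos pooled nor any replicate, and the hairpins' sequences and off-target matches were not analysed here. With 1 library per hairpin there was no replicate check and no test, so every interval below covers counting error only, and differences between cultures, transductions and library preparations are contained in each value.

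A short hairpin RNA is processed by the cell into a small interfering RNA that guides Argonaute proteins to matching transcripts. Each hairpin can also pair imperfectly with other transcripts, which is why studies commonly use more than 1 hairpin per target. Fetal liver progenitors in erythropoietin divide a few times while they shut down progenitor genes, accumulate hemoglobin and remodel their membrane before they expel the nucleus. Bloodlinc is transcribed from an enhancer region next to Slc4a1, which encodes band 3, the anion exchanger of red cells.

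The hairpin 1 library held 23682993 counts in genes and the hairpin 2 library 26737017, with 16780 and 17540 genes detected. Counts outside genes made up 24.3% and 25.3% of uniquely placed counts, and the mitochondrial ribosomal RNAs 23.9% and 20.9% of the counts in genes. Levels are given in CPM, counts scaled to library size with trimmed mean of M-values (TMM) factors. A count of 0 allows up to 3 counts, which were 0.131 CPM with hairpin 1 and 0.0972 CPM with hairpin 2. Summed over 15 erythroid marker genes the level was 52168 CPM with hairpin 1 and 45370 CPM with hairpin 2, and none of the 15 was at 0. Scaling by total counts in place of TMM moves log2 differences by 0.26 toward hairpin 2, which is enough to reverse the order of these erythroid sums. The 8 macrophage markers summed to 3.20 and 24.5 CPM, of which Csf1r made up most with hairpin 2 while C1qa and Timd4 were at 0 in both libraries. The 5 megakaryocyte markers summed to 51.5 and 96.2 CPM, the 6 neutrophil markers to 38.4 and 50.7 CPM, and the 3 progenitor markers to 30.2 and 8.62 CPM. In the progenitor sum Kit gave 28.1 and 6.35 CPM, while Gata2 gave 0.657 and 0.616 CPM and Cd34 1.40 and 1.65 CPM. Lymphoid, hepatocyte and stromal markers each summed to less than 1 CPM in both libraries.

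Bloodlinc itself (GRCm38 chromosome 11, 102375549 to 102377020, minus strand, a long intergenic RNA gene) gave 50 counts with hairpin 1 and 54 with hairpin 2. These counts corresponded to 2.19 CPM with hairpin 1 and 1.75 CPM with hairpin 2. The log2 difference, hairpin 2 minus hairpin 1 throughout, was -0.31, with a 95% counting interval of -0.91 to 0.26. A difference in the level of the targeted RNA between the hairpins was therefore not detectable at this depth. The Bloodlinc control hairpin library held 4.46 CPM, the hnRNPU control hairpin library 4.35 CPM and the empty vector library 1.26 CPM. By CPM alone both hairpins lay below the control hairpins and above the empty vector. The control levels came from 87, 166 and 52 counts in the same order. No counting interval is given for the order against the controls. Hnrnpu, which encodes a nuclear RNA-binding scaffold protein and is the target of the companion experiment, stood at 294 CPM with hairpin 1 and 214 CPM with hairpin 2, a log2 difference of -0.46 (-0.51 to -0.41).

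Across the transcriptome, 1910 of 10487 genes with a mean of at least 1 CPM differed by more than 2-fold between the hairpins (18.2%). Of these, 1167 were higher with hairpin 2 (11.1%) and 743 higher with hairpin 1 (7.08%). The difference exceeded 4-fold in 361 genes (3.44%), 274 toward hairpin 2 (2.61%) and 87 toward hairpin 1 (0.83%). It exceeded 8-fold in 109 genes (1.04%), 94 toward hairpin 2 (0.896%) and 15 toward hairpin 1 (0.143%). The whole counting interval lay past 2-fold in 728 genes higher with hairpin 2 (6.94%) and in 437 higher with hairpin 1 (4.17%). The interval excluded no difference in 7970 genes (76.0%), so most genes differed by more than counting error, which is the sole error these libraries give. The median absolute log2 difference was 0.46, and the middle of the distribution ran from -0.43 at the 25th percentile to 0.49 at the 75th.

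The split by direction rested on the scaling. When the libraries were scaled by their total counts in place of TMM, every log2 difference moved by 0.26 toward hairpin 2, and the calls became 1804 higher with hairpin 2 and 381 higher with hairpin 1. The share of calls toward hairpin 2 was then 82.6% against 61.1% with TMM. Gene groups are therefore given a direction below only where their median exceeded 0.3 in size. Their TMM counts past 2-fold stand beside 11.1% of all genes toward hairpin 2 and 7.08% toward hairpin 1. Their counts with total-count scaling stand beside a larger share of all genes toward hairpin 2 and a smaller share toward hairpin 1. These were 1804 and 381 of 10569 genes.

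**Figure D1:**
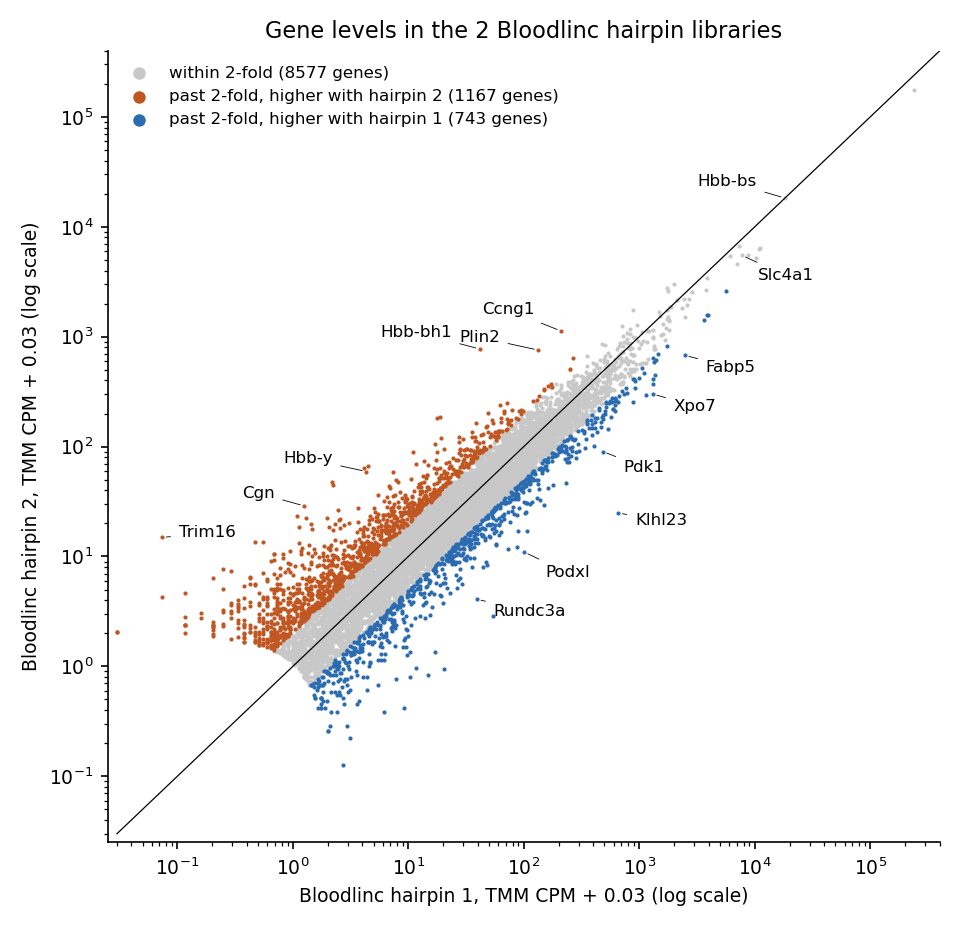
Levels of the 10487 genes in the hairpin 1 library (x axis) and the hairpin 2 library (y axis), both in TMM CPM plus 0.03 on log scales; each point is a gene and the line marks equal levels. Colours mark the 1167 genes past 2-fold higher with hairpin 2 and the 743 higher with hairpin 1, and the abundant erythroid genes Hbb-bs and Slc4a1 lie within 2-fold.

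The direction of the calls changed with the level of the gene. Between 1 and 5 CPM, 31.8% of genes were past 2-fold, with 520 higher with hairpin 2 and 217 higher with hairpin 1. At 100 CPM or more the share was 11.4%, with 42 higher with hairpin 2 and 139 higher with hairpin 1. With TMM, strongly expressed genes past 2-fold were thus mostly higher with hairpin 1, and weakly expressed ones mostly higher with hairpin 2. The split by level is not given with total counts. Across 9703 protein-coding genes, Spearman's rank correlation of the log2 difference was -0.22 with the mean level, -0.01 with exon length and 0.06 with GC content; genes are not independent replicates, and these values describe 2 libraries.

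Other pairs of single libraries give the scale of these numbers. Between the control hairpins of the Bloodlinc and hnRNPU experiments, neither of which targets either RNA by its label, 27.3% of 10760 genes were past 2-fold, 16.2% higher with the hnRNPU control and 11.1% higher with the Bloodlinc control. The hnRNPU hairpin 1 and hairpin 2 libraries held only 2931627 and 2612916 counts in genes, with 89.7% and 86.6% of uniquely placed counts outside genes. In them 3 counts were 1.77 and 1.18 CPM, above the 1 CPM filter, so counting error is larger in this pair. The part of counting error in its share was not tested. Between the hnRNPU hairpins the share was 20.4%, with 9.27% higher with hnRNPU hairpin 2 and 11.1% higher with hnRNPU hairpin 1. Between the empty vector and the Bloodlinc vector it was 0.0994%, or 11 of 11062 genes, with 0.0362% higher with the Bloodlinc vector and 0.0633% higher with the empty vector. By this share the Bloodlinc hairpins lay closer together than the 2 control hairpins and much further apart than the 2 vector libraries; each pair is 2 single libraries, and the differences between pairs were not tested.

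**Figure D2:**
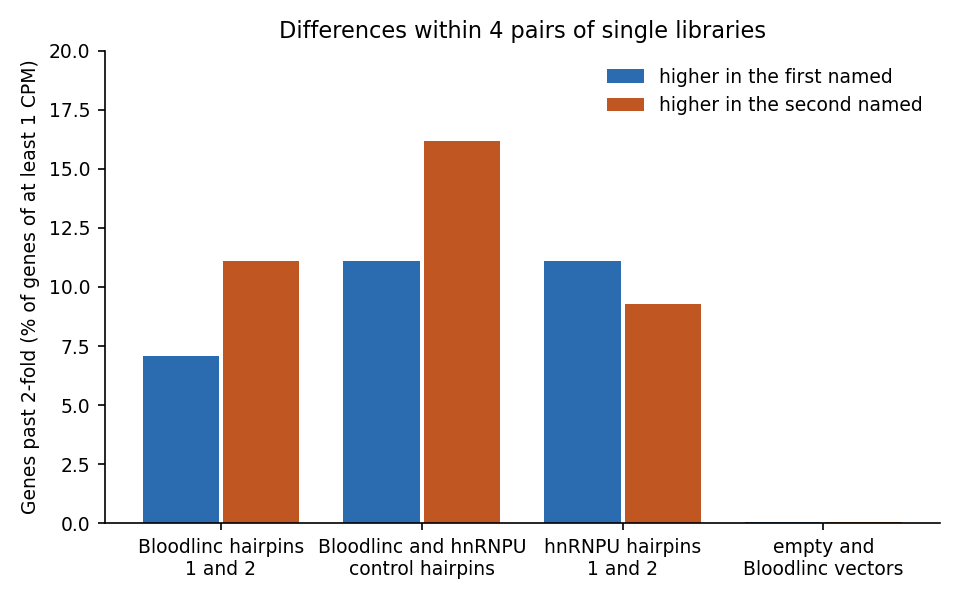
Share of genes (y axis, percent of genes with a mean of at least 1 CPM in the pair) past 2-fold in 4 pairs of single libraries, split by which library was higher; bars start at 0 and carry no error because each arm is 1 library. The Bloodlinc hairpins stand at 7.08% and 11.1%, the control hairpins at 11.1% and 16.2%, and the vector pair near 0.

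The levels in the 3 control libraries show which hairpin library stood away from them. The 1167 genes past 2-fold toward hairpin 2 were set against the range of the Bloodlinc control hairpin, hnRNPU control hairpin and empty vector libraries. Hairpin 2 alone lay outside this range in 506 (43.4%), hairpin 1 alone in 176 (15.1%), both in 373 (32.0%) and neither in 112 (9.60%). Over all 10487 genes these shares were 25.2%, 14.3%, 27.6% and 32.9%. Hairpin 2 was above all 3 controls in 872 of the 1167 (74.7%), against 31.5% over all 10487 genes. Hairpin 1 was below all 3 in 417 of the 1167 (35.7%), against 16.2% over all 10487 genes. Among the 743 genes past 2-fold toward hairpin 1, hairpin 2 was below all 3 controls in 470 (63.3%) and hairpin 1 above all 3 in 293 (39.4%), against 21.3% and 25.7% over all 10487 genes. These genes were chosen for a difference between the hairpins, which raises all such shares. The Bloodlinc control hairpin, which shares the experiment by its label, was nearer hairpin 1 on the log2 scale in 955 of the 1167 genes, in 558 of the 743, and in 6930 of all 10487 (66.1%). In both directions the hairpin 2 library was outside the control range more often than the hairpin 1 library. The same held over all 10487 genes.

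The largest relative difference was in Trim16, which encodes a tripartite motif protein. It gave 1 count with hairpin 1 and 459 with hairpin 2, that is 0.0438 CPM with hairpin 1 and 14.9 CPM with hairpin 2, so that the ratio was 339 (counting interval 60.6 to 13436). The controls held 0.256 CPM with the Bloodlinc control hairpin, 1.34 CPM with the hnRNPU control hairpin and 1.31 CPM with the empty vector, so hairpin 2 was high against all of them. Upp1, which encodes uridine phosphorylase, stood at 0.438 CPM with hairpin 1 and 13.5 CPM with hairpin 2 and at 0.768, 0.629 and 0.653 CPM in the 3 controls in the same order. Cgn, which encodes the tight junction protein cingulin, stood at 1.23 CPM with hairpin 1 and 28.8 CPM with hairpin 2, and the 3 controls lay between 0.666 and 1.47 CPM. Aqp8, a water channel gene, stood at 4.07 CPM with hairpin 1 and 64.1 CPM with hairpin 2, with 2.18 to 3.31 CPM in the controls. In these 4 genes hairpin 2 was far above all 3 controls. Hairpin 1 lay below the controls for Trim16 and Upp1, inside their range for Cgn, and just above it for Aqp8.

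Some of the other genes among the 20 highest differences were also raised in a control library. Mical1, an actin-oxidising enzyme gene, stood at 1.05 CPM with hairpin 1 and 23.5 CPM with hairpin 2, but the empty vector library held 25.03 CPM. S100a10, which encodes the annexin A2 partner protein p11, stood at 2.15 CPM with hairpin 1 and 47.6 CPM with hairpin 2, with 3.94 to 17.8 CPM in the controls. Fyb, an adaptor of haematopoietic cells, was at 1.45 against 17.9 CPM and reached 18.5 CPM with the empty vector. For Mical1 and Fyb the hairpin 2 level therefore lay within the range of the controls, and the hairpin 1 level below it. The remaining genes of this set were Mfge8 (0.526 against 13.6 CPM, hairpin 1 against hairpin 2), Stard9 (2.19 against 45.1 CPM), Ttc12 (1.27 against 22.4 CPM), Tubb3 (1.095 against 18.7 CPM), Fam160a1 (4.42 against 66.1 CPM), Ripor3 (0.657 against 10.6 CPM), Rnf150 (1.402 against 19.6 CPM), Tuba1a (0.789 against 10.6 CPM), Zfp608 (1.095 against 13.2 CPM) and Zfp59 (0.92 against 11.2 CPM), beside the embryonic globins and Csf1r described below.

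In the opposite direction, Klhl23, a Kelch-like gene, showed the largest difference. It stood at 659 CPM with hairpin 1 and 24.9 CPM with hairpin 2, and at 172 CPM with the Bloodlinc control hairpin, 88.5 CPM with the hnRNPU control hairpin and 126 CPM with the empty vector. The log2 difference was -4.72 (-4.83 to -4.62), so hairpin 1 was 26.4-fold higher. Hairpin 1 lay above every control and hairpin 2 below every control. Podxl, which encodes the sialomucin podocalyxin, stood at 101 CPM with hairpin 1 and 10.95 CPM with hairpin 2, with controls at 32.6, 51.2 and 138 CPM in the same order. Spry1, an inhibitor of receptor tyrosine kinase signalling, stood at 87.7 CPM with hairpin 1 and 12.2 CPM with hairpin 2, with controls from 19.03 to 49.2 CPM. Hairpin 1 was above and hairpin 2 below the controls for Spry1, whereas for Podxl the empty vector library was the highest.

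For some genes hairpin 1 was far above all controls while hairpin 2 lay near them. Abcg1, a sterol exporter gene, stood at 73.6 CPM with hairpin 1 and 11.6 CPM with hairpin 2, and the controls held 6.48 to 10.04 CPM. Ptger3, the gene of a prostaglandin E2 receptor, stood at 107 CPM with hairpin 1 and 17.2 CPM with hairpin 2, with 19.3 to 35.96 CPM in the controls. Cystm1 stood at 44.2 CPM with hairpin 1 and 8.003 CPM with hairpin 2, with 3.29 to 7.18 CPM in the controls. Hairpin 2 was just above the control range for Abcg1 and Cystm1 and just below it for Ptger3. Tmtc1 stood at 54.1 CPM with hairpin 1 and 2.85 CPM with hairpin 2 against 8.15 to 39.4 CPM in the controls, with hairpin 1 above and hairpin 2 below them. Hmgn1, a nucleosome-binding protein gene with many processed copies in the genome, stood at 48.5 CPM with hairpin 1 and 8.29 CPM with hairpin 2 against 33.04 to 107 CPM, so that hairpin 2 alone was outside the control range. The rest of the 20 were Smtnl1 (14.7 against 0.81 CPM, hairpin 1 against hairpin 2), Fam131a (17.1 against 1.33 CPM), Reep1 (10.3 against 0.778 CPM), Foxh1 (11.5 against 0.94 CPM), Prr15l (10.4 against 1.33 CPM), Dnah2 (9.55 against 1.46 CPM), Tcaf1 (8.94 against 1.46 CPM), Clcn2 (89.02 against 16.9 CPM) and Zfp599 (20.02 against 3.76 CPM), with Rundc3a, Fosb and Pdk1 below.

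Among protein-coding genes, the largest differences in CPM toward hairpin 1 included several abundant erythroid transcripts. Some noncoding RNAs differed by more: the nuclear RNA Malat1 stood at 10286 against 5195 CPM, hairpin 1 against hairpin 2, Rnu3a, a small nucleolar RNA, at 11058 against 6355 CPM, and mt-Rnr1, a mitochondrial ribosomal RNA, at 10927 against 6277 CPM. Tfrc, the transferrin receptor gene that supplies iron for heme, stood at 8815 CPM with hairpin 1 and 5496 CPM with hairpin 2. Slc2a1, the glucose transporter gene, stood at 5600.5 against 2604 CPM, hairpin 1 against hairpin 2, Tent5c, an RNA-tailing enzyme gene, at 3972 against 1587 CPM, and Cd24a, a surface glycoprotein gene, at 3841 against 1565 CPM. Car2 (carbonic anhydrase) stood at 6979 against 4613 CPM, Tmcc2 at 3644 against 1429.9 CPM, and Fabp5, a fatty acid binding protein gene, at 2487 against 677 CPM. Slc2a1, Tent5c, Cd24a, Tmcc2 and Fabp5 were past 2-fold, whereas Tfrc (log2 difference -0.68), Car2 (-0.60), Eef2 (-0.50) and Slc4a1 (-0.49) were not. Among protein-coding genes, those with the largest differences in CPM toward hairpin 2 included Hbb-bh1, Ccng1, Mt1 (885 against 1759 CPM), Cpox (1766 against 2614 CPM), Plin2, Pkm (475 against 859 CPM), Tspo (267 against 646 CPM), Ctsb (825 against 1178 CPM) and Taldo1 (507 against 842 CPM).

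**Figure D3:**
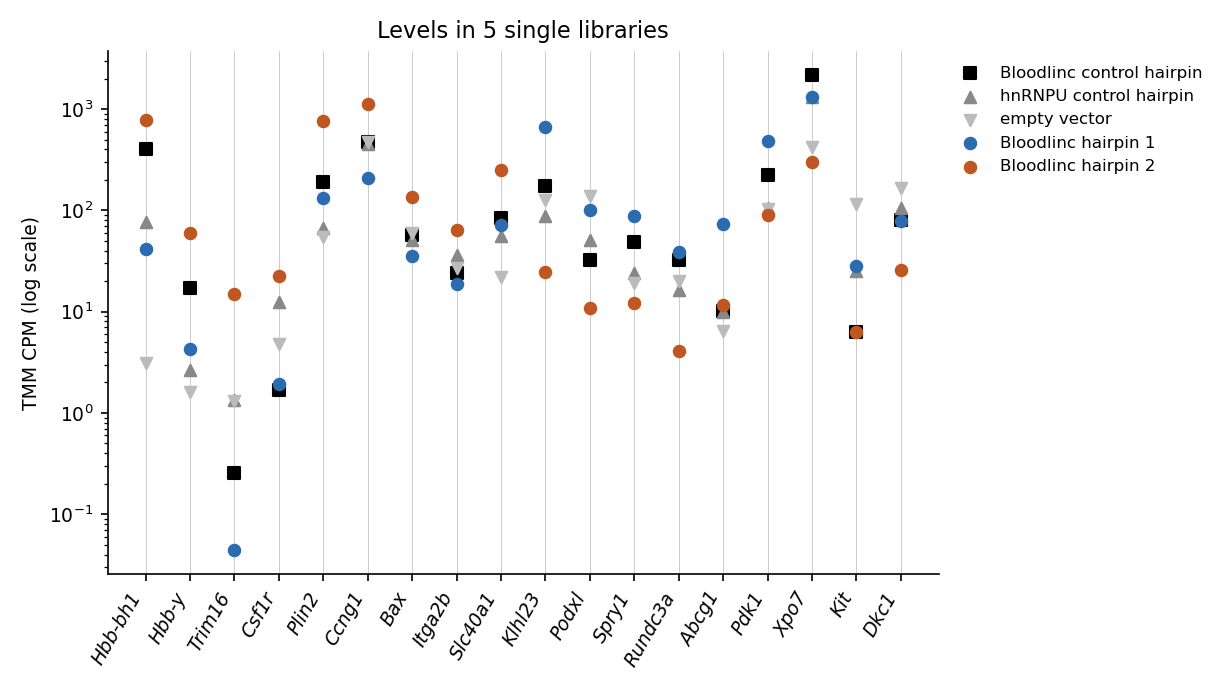
TMM CPM (y axis, log scale) of 18 genes in the 2 Bloodlinc hairpin libraries and 3 control libraries, 1 point per library and no error bars because each is a single library. Hbb-bh1 spans 3.12 to 772 CPM, hairpin 2 is highest for Ccng1, Bax and Plin2, and hairpin 1 is highest for Klhl23 and Abcg1.

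The embryonic beta-like globins gave the largest differences among erythroid genes, while the adult globins did not differ past 2-fold. In the mouse, Hbb-y and Hbb-bh1 encode the beta-like chains of the first, yolk sac derived red cells, and Hbb-bs and Hbb-bt those of fetal liver and adult red cells. The 250 bases before the start of 3 of these genes are shown because members of 1 locus parted in these libraries. They come from RefSeq on GRCm38.p6, and Hbb-bh1 is named only. Capitals mark 3 motifs searched on both strands. CCACACCC is a form of the box bound by Kruppel-like factors. A motif bound by erythroid zinc finger factors of the Gata1 family was searched as AGATAA. The last motif was the common promoter element CCAAT. Hbb-y lies at chr7:103853208-103853457, minus strand, Hbb-bs at chr7:103827929-103828178, minus strand, and Hbb-bt at chr7:103813924-103814173, minus strand.
Hbb-y: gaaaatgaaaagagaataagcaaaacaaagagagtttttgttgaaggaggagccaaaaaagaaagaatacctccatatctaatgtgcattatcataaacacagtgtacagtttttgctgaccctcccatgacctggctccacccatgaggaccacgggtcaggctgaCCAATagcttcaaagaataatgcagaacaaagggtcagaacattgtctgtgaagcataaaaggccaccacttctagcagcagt
Hbb-bs: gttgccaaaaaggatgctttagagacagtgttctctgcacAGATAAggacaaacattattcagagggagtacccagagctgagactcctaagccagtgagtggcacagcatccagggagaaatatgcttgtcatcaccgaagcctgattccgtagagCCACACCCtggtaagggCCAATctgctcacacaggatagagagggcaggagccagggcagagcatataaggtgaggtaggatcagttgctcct
Hbb-bt: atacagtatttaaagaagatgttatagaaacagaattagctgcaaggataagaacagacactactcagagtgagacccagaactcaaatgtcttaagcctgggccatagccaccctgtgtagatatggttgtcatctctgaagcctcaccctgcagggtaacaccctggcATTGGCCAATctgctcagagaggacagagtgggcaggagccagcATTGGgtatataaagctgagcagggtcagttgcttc
Only the Hbb-bs window held the exact letters CCACACCC, 93 bases before the start, and AGATAA, 210 bases before it. Other forms of these sites were not searched, so the Hbb-y and Hbb-bt windows are not shown to lack them. CCAAT occurred 83 bases before the start in Hbb-y and 76 in Hbb-bs, and 3 times in Hbb-bt, where the copies at 80 and 75 bases adjoin. Over all 32851 RefSeq promoters of this length, 3.20% held CCACACCC, 9.99% AGATAA and 33.8% CCAAT. A match describes letters in a window and is not a measured binding site.

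Hbb-bh1 (GRCm38 chromosome 7, 103841637 to 103843164, minus strand) stood at 41.7 CPM with hairpin 1 and 772 CPM with hairpin 2, from 951 and 23823 counts. The controls held 405 CPM with the Bloodlinc control hairpin, 76.3 CPM with the hnRNPU control hairpin and 3.12 CPM with the empty vector. Hairpin 2 was thus 18.5-fold higher than hairpin 1 (log2 difference 4.21, 4.12 to 4.31), but the controls themselves spanned a wider range than the hairpins. Hbb-y stood at 4.29 CPM with hairpin 1 and 59.3 CPM with hairpin 2 (log2 difference 3.76, 3.49 to 4.10), with 17.2, 2.67 and 1.62 CPM in the controls. For both genes the Bloodlinc control hairpin library lay between the 2 hairpins, and hairpin 2 was the highest of the 5 libraries. Hbb-bs, at 18242 CPM with hairpin 1 and 18259.8 CPM with hairpin 2, had a log2 difference of 0.00 (-0.00 to 0.01), and Hbb-bt one of -0.40. Hba-a1 and Hba-a2, the adult alpha globins, had 0.27 and -0.06. Hbb-bs and Hbb-bt, and Hba-a1 and Hba-a2, are near-identical pairs, so the division of reads within each pair is uncertain. Alignments that were not unique entered no gene count. Over all positions they numbered 33959690 with hairpin 1 and 43677900 with hairpin 2, and the part from globin genes is not known. Genes involved in the switch from embryonic to adult globin differed less. Bcl11a stood at 55.8 against 36.6 CPM, hairpin 1 against hairpin 2, and Sox6 at 506 against 287 CPM. Zbtb7a stood at 109 against 87.2 CPM and Klf1 at 299.98 against 312 CPM. None of the 15 genes of the globin switching list was past 2-fold. The largest difference was in Myb, at 14.6 against 7.35 CPM. Its log2 difference was -0.98 (-1.24 to -0.74), so its counting interval reached past 2-fold.

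Heme synthesis was the most uniform erythroid group. None of its 15 measured members was past 2-fold, and the log2 differences ran from -0.55 for Abcb10, a mitochondrial heme pathway transporter, to 0.57 for Cpox, the coproporphyrinogen oxidase gene. Alas2, the first enzyme of the erythroid pathway, stood at 7286 CPM with hairpin 1 and 6684 CPM with hairpin 2. Of 20 measured iron handling genes, 3 were past 2-fold toward hairpin 2 and 1 toward hairpin 1, near the 11.1% and 7.08% of all genes; total counts gave 3 and 0. Slc40a1, the iron exporter ferroportin, stood at 71.3 CPM with hairpin 1 and 248 CPM with hairpin 2, and the controls held 22.1 to 83.96 CPM. Steap3, the endosomal ferrireductase gene, stood at 44.7 against 111 CPM, hairpin 1 against hairpin 2, and the iron chaperone gene Pcbp1 at 17.4 against 35.6 CPM. The mitochondrial iron importer gene Slc25a37 stood at 1451 against 703 CPM. The exporter was thus higher with hairpin 2, while the importer into mitochondria was higher with hairpin 1.

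Red cell membrane and skeleton genes had a median log2 difference of -0.34, with 5 of 33 measured members past 2-fold toward hairpin 1 and 2 toward hairpin 2; with total counts these became 1 and 3 and the median -0.08. Aqp1, the red cell water channel gene, stood at 57.1 CPM with hairpin 1 and 12.9 CPM with hairpin 2, a log2 difference of -2.14. Rhag, of the Rh complex, stood at 713 against 322 CPM, hairpin 1 against hairpin 2, Xk at 192 against 84.4 CPM, and Cd47, the surface signal that restrains macrophages, at 452 against 225 CPM. In contrast, Cd59a, the complement inhibitor gene, stood at 16.7 against 63.6 CPM, and Ackr1, the Duffy receptor gene, at 12.5 against 29.7 CPM. The skeleton itself did not move as 1 block: Add2 (adducin) had 0.91, while Epb41 (protein 4.1) had -0.65 and Actb (actin) -0.73. Slc4a1 stood at 7705 CPM with hairpin 1 and 5505 CPM with hairpin 2, and at 13361 CPM with the Bloodlinc control hairpin, 6259.8 CPM with the hnRNPU control hairpin and 1555 CPM with the empty vector.

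Genes of late maturation included 7 of 40 past 2-fold toward hairpin 1 and 1 toward hairpin 2, with a median of -0.23 that changed sign to 0.03 with total counts. Xpo7, a nuclear exportin gene induced late in red cell formation, stood at 1311 CPM with hairpin 1 and 301 CPM with hairpin 2, and at 2194 CPM with the Bloodlinc control hairpin, 1326 CPM with the hnRNPU control hairpin and 419.8 CPM with the empty vector. Hairpin 2 was the lowest of the 5 libraries for Xpo7. The ubiquitin conjugating enzyme gene Ube2h stood at 282 against 90.01 CPM, hairpin 1 against hairpin 2, and Bpgm, the enzyme gene that sets red cell bisphosphoglycerate, at 653 against 256 CPM. Ulk1, the autophagy kinase gene, stood at 143 against 57.4 CPM, Ypel4 at 336 against 137 CPM and Fbxo30 at 518 against 231 CPM. The exception was Diaph2, a formin gene, at 1.31 against 4.89 CPM.

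Transcription factors of the erythroid lineage had 2 of 26 members past 2-fold in each direction. Over all genes the shares were 11.1% toward hairpin 2 and 7.08% toward hairpin 1. With total counts 3 were past 2-fold toward hairpin 2 and 0 toward hairpin 1. Tal1, a core erythroid factor, stood at 447 against 216 CPM, hairpin 1 against hairpin 2, and Cbfa2t3, a corepressor that binds with it, at 11.1 against 4.795 CPM. Mafg, a small Maf partner of the factor NFE2, stood at 97.9 against 212 CPM, and Tcf3 at 41.8 against 93.02 CPM. Gata1, the principal regulator of the lineage, had a log2 difference of -0.15, and Klf1 0.06. Among erythropoietin receptor and STAT5 genes, the receptor gene Epor had 0.43, Jak2 -0.29 and Cish, a feedback inhibitor, -0.40. The median of that list was -0.40, or -0.14 with total counts, with 3 of 21 past 2-fold toward hairpin 1 (Podxl, Spry1 and Gab1) and 2 toward hairpin 2 (Lyn and Osm).

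Progenitor genes did not share a direction. Kit, the stem cell factor receptor gene, stood at 28.1 CPM with hairpin 1 and 6.35 CPM with hairpin 2, with 6.301 CPM with the Bloodlinc control hairpin, 25.04 CPM with the hnRNPU control hairpin and 115 CPM with the empty vector. Hairpin 2 and the Bloodlinc control hairpin were nearly equal, hairpin 1 lay just above the hnRNPU control, and the empty vector library was far above all. Cebpa stood at 4.51 against 0.972 CPM, hairpin 1 against hairpin 2, and Csf2rb, the common beta chain of cytokine receptors, at 273 against 114 CPM. In the other direction, Ikzf2 stood at 3.99 against 15.5 CPM, Meis1 at 1.402 against 4.18 CPM and Gfi1 at 0.482 against 2.56 CPM. Altogether 5 of 22 measured members were past 2-fold toward hairpin 2 and 4 toward hairpin 1, or 6 and 3 with total counts.

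Ribosome biogenesis and MYC target genes lay almost uniformly higher with hairpin 1. The median log2 difference was -0.76, 35 of 36 members were higher with hairpin 1, and 12 of 36 were past 2-fold in that direction, beside 7.08% of all genes. With total counts, 33 of 36 were higher with hairpin 1, 3 were past 2-fold and the median was -0.50. Dkc1, the pseudouridine synthase gene of small nucleolar particles, stood at 78.8 CPM with hairpin 1 and 25.7 CPM with hairpin 2, and at 79.7 CPM with the Bloodlinc control hairpin, 106 CPM with the hnRNPU control hairpin and 166 CPM with the empty vector. Hairpin 2 was the lowest of the 5 libraries, while hairpin 1 was level with the Bloodlinc control hairpin. Polr1b, a subunit gene of RNA polymerase I, stood at 20.6 against 6.35 CPM, hairpin 1 against hairpin 2, Nolc1, a nucleolar chaperone gene, at 32.3 against 13.5 CPM, and Odc1, the first enzyme of polyamine synthesis, at 1324 against 643 CPM. The sole member higher with hairpin 2 was Rrs1, at 3.33 against 5.18 CPM. Myc stood at 13.3 against 7.91 CPM, a log2 difference of -0.75.

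The E-box CACGTG is the site that MYC and related factors bind. Of the 30 members with a RefSeq promoter, 3 held it in the 250 bases before the start (10%), beside 6.02% of all 32851 promoters. The matches are printed with their surroundings (RefSeq, GRCm38.p6, E-box in capitals) because 35 of 36 members lay on 1 side. They were at chr6:125131796-125131855, plus strand for Nop2, chr11:93968273-93968317, minus strand for Nme1, and chr5:129020011-129020070, plus strand for Ran, and lay 60, 18 and 118 bases before the start.
Nop2: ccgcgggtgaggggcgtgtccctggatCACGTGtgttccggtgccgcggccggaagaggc
Nme1: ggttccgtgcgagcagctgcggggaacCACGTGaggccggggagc
Ran: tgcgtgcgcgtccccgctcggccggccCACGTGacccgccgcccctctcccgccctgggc
Nop2 had a log2 difference of -0.71, Nme1 -0.42 and Ran -0.28, so none of the 3 was past 2-fold.

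DNA replication genes were shifted in the same direction. The median was -0.65, 43 of 45 were higher with hairpin 1, and 10 of 45 were past 2-fold, against 1 of 45 with total counts (median -0.39, 37 of 45 higher with hairpin 1). Rrm2, the ribonucleotide reductase subunit gene, stood at 896 CPM with hairpin 1 and 413 CPM with hairpin 2, Mcm5, of the replicative helicase, at 383 against 176 CPM, hairpin 1 against hairpin 2, and Cdc6, which loads the helicase, at 260.4 against 117 CPM. Pcna, the sliding clamp gene, had -0.93. Mcm6 lay on the other side at 169 against 239 CPM. Genes of mitosis are given no direction, with a median of -0.18 that changed sign to 0.08 with total counts. With total counts, 24 of 40 were higher with hairpin 2. With TMM no member was past 2-fold toward hairpin 1 and 1 of 40 toward hairpin 2, Pttg1 (securin), at 14.7 against 43.3 CPM. Mki67, the proliferation marker, stood at 1837 against 1861 CPM. Replication-dependent histone genes had a median of -0.09 with 1 of 46 past 2-fold, or 0.17 and 4 with total counts.

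Protein synthesis genes showed smaller differences. Of 79 ribosomal protein genes, 67 were higher with hairpin 1 and 8 past 2-fold, with a median of -0.30. With total counts 47 were higher with hairpin 1, 3 past 2-fold, and the median was -0.04. Rpl13 stood at 619 against 209.6 CPM, hairpin 1 against hairpin 2, and Rps4x at 241 against 78.6 CPM, and many of these genes have processed copies that can take part of their reads. The hnRNP and splicing factor list had a median of -0.33, which was -0.07 with total counts, and 3 of 59 past 2-fold, or 1 with total counts. All 12 measured mitochondrially encoded protein genes were higher with hairpin 1 (median -0.47), none past 2-fold, and 8 of 12 remained so with total counts. The 7 measured mitochondrial ribosomal and transfer RNAs were all higher with hairpin 1, by -0.44 for mt-Rnr2 to -2.33 for mt-Ty. Nuclear genes of oxidative phosphorylation had a median of 0.05, with 3 of 77 past 2-fold.

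**Figure D4:**
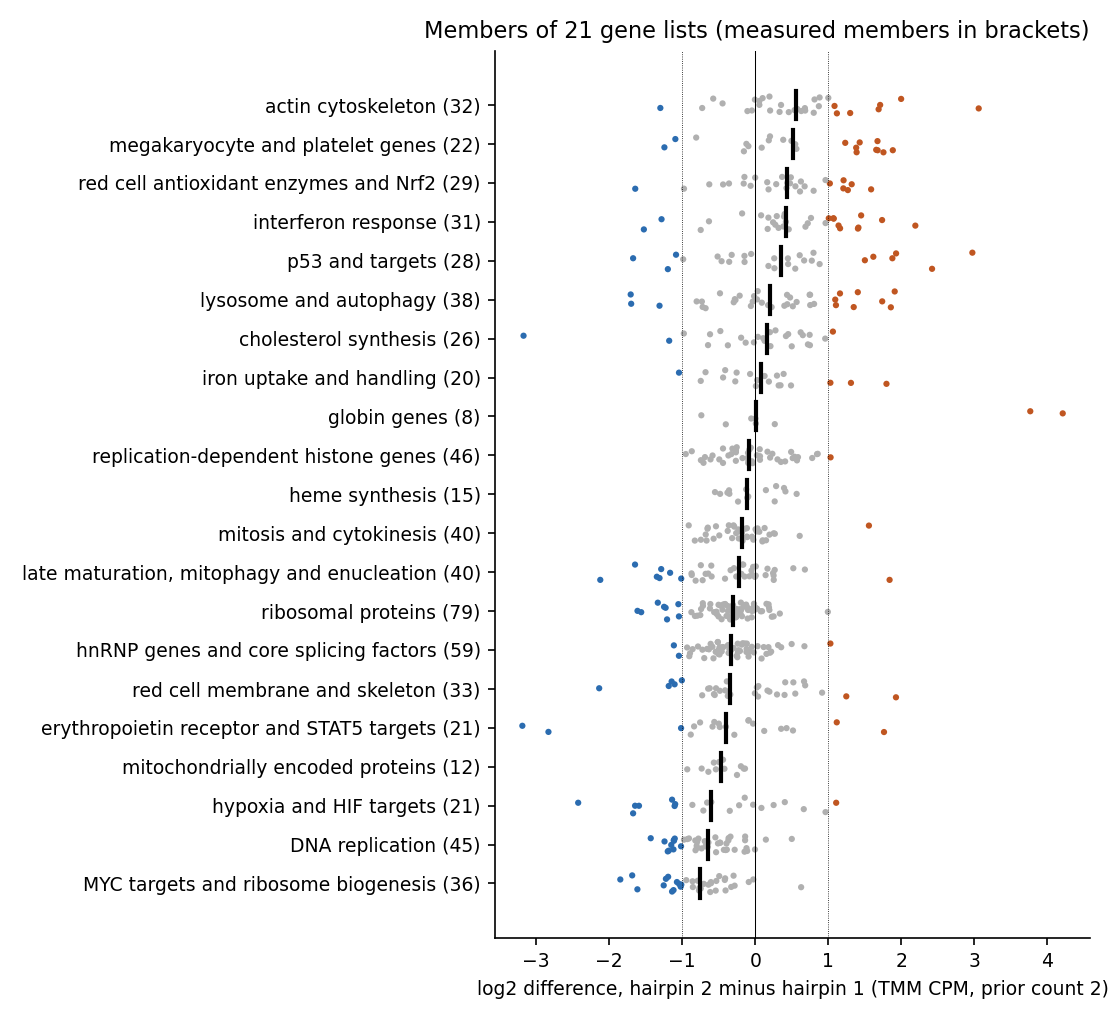
Log2 difference, hairpin 2 minus hairpin 1 (x axis), of the measured members of 21 gene lists (rows, number measured in brackets); each point is a gene, black bars are medians and dotted lines mark 2-fold. The medians run from -0.76 for ribosome biogenesis to 0.56 for actin cytoskeleton genes, and total-count scaling moves every point by 0.26 to the right.

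Of p53 and its targets, 6 of 28 measured genes were past 2-fold toward hairpin 2, beside 11.1% of all genes, and 3 toward hairpin 1, beside 7.08%. The median was 0.35, and total counts gave 9 and 1. Ccng1, which encodes cyclin G1, stood at 210.3 CPM with hairpin 1 and 1126 CPM with hairpin 2, and at 474 CPM with the Bloodlinc control hairpin, 449.5 CPM with the hnRNPU control hairpin and 471 CPM with the empty vector. The 3 controls thus lay within a narrow range, with hairpin 1 below it and hairpin 2 above it, a log2 difference of 2.42 (2.38 to 2.46). Bax, the pro-apoptotic pore gene, stood at 35.7 CPM with hairpin 1 and 136 CPM with hairpin 2, with 51.3 to 59.2 CPM in the controls, again with the hairpins on opposite sides. Zmat3 stood at 18.3 against 51.9 CPM, hairpin 1 against hairpin 2, Plk2 at 6.62 against 24.5 CPM, Perp at 1.31 against 10.8 CPM and Pmaip1 (Noxa) at 2.19 against 6.87 CPM. The classical targets Cdkn1a (0.80) and Mdm2 (0.67) were higher with hairpin 2 by less than 2-fold, and Bbc3 (Puma) had -0.06. Ddit4 (49.6 against 15.5 CPM), Sesn2 (579.98 against 253 CPM) and Rrm2b (10.6 against 4.96 CPM) were past 2-fold toward hairpin 1, and Ddit4 and Sesn2 are also induced by other stresses. Trp53 itself stood at 46.7 against 68.3 CPM. In the apoptosis list 3 of 24 were past 2-fold in each direction, beside 11.1% of all genes toward hairpin 2 and 7.08% toward hairpin 1. Total counts gave 6 toward hairpin 2 and 2 toward hairpin 1. The list held the death ligand gene Fasl at 7.75 against 0.745 CPM and the caspase-8 inhibitor gene Cflar at 16.6 against 45.6 CPM.

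Genes of the actin cytoskeleton had the median furthest toward hairpin 2 among the lists with at least 10 measured members. It was 0.56, with 25 of 32 higher with hairpin 2. Past 2-fold were 7 toward hairpin 2 and 1 toward hairpin 1, beside 11.1% and 7.08% of all genes. Total counts gave 12 and 1. Gsn, the actin-severing protein gelsolin, stood at 2.497 CPM with hairpin 1 and 21.4 CPM with hairpin 2, with 3.23 to 11.2 CPM in the controls. Msn (moesin) stood at 52.9 against 173 CPM, hairpin 1 against hairpin 2, Lcp1 (plastin) at 37.5 against 121 CPM, and Vasp at 29.7 against 73.2 CPM. Rdx (radixin), which belongs to the same family as moesin, stood on the other side at 413 against 168 CPM. For Msn, the empty vector library held 228 CPM, above hairpin 2, and for Lcp1 the controls held 85.9 to 108 CPM, between the hairpins.

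Megakaryocyte and platelet genes had a median of 0.52. Of 22 measured members, 9 were past 2-fold toward hairpin 2 and 2 toward hairpin 1, beside 11.1% and 7.08% of all genes. Total counts gave 9 and 0, beside 1804 and 381 of 10569 genes. Itga2b, the platelet integrin gene, stood at 18.9 CPM with hairpin 1 and 63.9 CPM with hairpin 2, with 23.98 to 36.5 CPM in the controls. Plek (pleckstrin) stood at 24.4 against 78.1 CPM, hairpin 1 against hairpin 2, Slc6a4 (serotonin transporter) at 0.57 against 2.3004 CPM, and Rab27b at 5.17 against 13.6 CPM. Markers of mature megakaryocytes did not share a direction. Gp9, a platelet surface glycoprotein gene, was past 2-fold toward hairpin 2 (2.23 against 5.35 CPM), Pf4 (4.38 against 4.99 CPM) and Vwf (22.8 against 20.5 CPM) did not differ past 2-fold, and Ppbp was past 2-fold toward hairpin 1 (3.198 against 1.46 CPM). In bulk RNA, more cells of a type and more RNA per cell cannot be told apart.

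Csf1r, the macrophage growth factor receptor gene, stood at 1.93 CPM with hairpin 1 and 22.5 CPM with hairpin 2, and at 1.69 CPM with the Bloodlinc control hairpin, 12.5 CPM with the hnRNPU control hairpin and 4.84 CPM with the empty vector. Adgre1, which encodes the macrophage surface protein F4/80, was below 1 CPM in both libraries but also higher with hairpin 2, with 5 counts against 29 and a log2 difference of 1.79 (0.72 to 3.83). The complement genes C1qb and C1qc gave 0 counts with hairpin 1, and 3 and 6 counts with hairpin 2. Of the other macrophage markers, Cd68 gave 22 counts in each library, a log2 difference of -0.40 (-1.36 to 0.49). Vcam1 gave 2 counts with hairpin 1 and 0 with hairpin 2. Lyz2 stood at 28.2 against 23.4 CPM, hairpin 1 against hairpin 2, Itgam at 12.9 against 12.9 CPM and Tyrobp at 0.964 against 1.04 CPM. Csf1r was the sole member past 2-fold among the 6 of 28 with a mean of at least 1 CPM. Neutrophil genes had a median of -0.01, with S100a8 at 5.61 against 9.66 CPM and Mpo at 6.62 against 3.86 CPM. Both were far lower than with the hnRNPU control hairpin (341 and 389 CPM). Lysosomal hydrolase genes, which are abundant in macrophages but present in all cells, included Hexa (5.52 against 20.9 CPM), Ctsl (12.8 against 46.7 CPM) and Neu1 (10.6 against 35.7 CPM), all past 2-fold toward hairpin 2. The autophagy genes Atg4a (90.3 against 27.6 CPM) and Atg9a (134 against 41.3 CPM) stood past 2-fold toward hairpin 1, and the lysosome and autophagy list counted 8 toward hairpin 2 and 3 toward hairpin 1 of 38, or 12 and 3 with total counts. The part of other cell types in these differences was not tested.

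Interferon response genes had a median of 0.42, with 26 of 31 measured members higher with hairpin 2. Past 2-fold were 10 toward hairpin 2 and 2 toward hairpin 1, beside 11.1% and 7.08% of all genes. With total counts these were 12 and 2, and the median was 0.68. Ifi35 stood at 16.6 against 36.6 CPM, hairpin 1 against hairpin 2, Ifih1, the sensor of long double-stranded RNA, at 10.5 against 21.2 CPM, and Ddx58, the sensor of 5' triphosphate RNA, at 1.71 against 5.86 CPM. Ifit1 stood at 2.23 against 5.09 CPM and Irf7, a transcription factor of the response, at 0.92 against 2.56 CPM. Rsad2 (54.1 against 22.2 CPM) and Mavs (73.6 against 25.5 CPM) were higher with hairpin 1, Oasl2 stood at 39.8 against 25.6 CPM and Isg15 at 2.23 against 2.37 CPM, so the list did not move as 1 block. None of the 10 measured MHC class I genes was past 2-fold, or 2 with total counts, with B2m at 78.1 against 152 CPM. The list of small RNA and double-stranded RNA machinery had a median of 0.05, with 16 of 26 measured members higher with hairpin 2. Past 2-fold were 2 toward hairpin 2 and 1 toward hairpin 1, or 5 and 1 with total counts. The 1 toward hairpin 1 was Ago2, the Argonaute that cleaves targets, at 427 CPM with hairpin 1 and 135 CPM with hairpin 2. The controls held 107 to 309.8 CPM of Ago2. The 2 toward hairpin 2 were Prkra, at 2.32 against 8.13 CPM, and Tarbp2, at 15.5 against 32.9 CPM.

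The list of red cell antioxidant enzymes and genes linked to the factor Nrf2 had a median of 0.44. Of its 29 measured members, 6 were past 2-fold toward hairpin 2 and 1 toward hairpin 1, beside 11.1% and 7.08% of all genes. With total counts these were 8 and 1, and the median was 0.70. Srxn1 (sulfiredoxin) stood at 37.7 against 113 CPM, hairpin 1 against hairpin 2, Nqo1 at 39.3 against 98.2 CPM, Txnrd1 at 74.7 against 172 CPM and Pgd, of the pentose phosphate pathway, at 21.5 against 51.9 CPM. Gclc, which limits glutathione synthesis, stood on the other side at 470.2 against 150.4 CPM, while its partner subunit gene Gclm stood at 124 against 192 CPM. The controls held 111, 260.2 and 62.01 CPM of Srxn1, so hairpin 2 was level with its own control and hairpin 1 was the lowest. For Gclc hairpin 2 was the lowest, below 342 to 765 CPM in the controls.

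Metabolic genes differed in both directions. Plin2, the coat protein of lipid droplets, stood at 133 CPM with hairpin 1 and 755 CPM with hairpin 2, and at 189 CPM with the Bloodlinc control hairpin, 67.6 CPM with the hnRNPU control hairpin and 54.6 CPM with the empty vector. Hairpin 2 was the highest of the 5 libraries, by a log2 difference of 2.50 (2.45 to 2.56) from hairpin 1. Cpt1a, which admits fatty acids to mitochondria, stood at 13.1 against 39.2 CPM, hairpin 1 against hairpin 2, Lpin1, a phosphatidate phosphatase gene, at 32.1 against 94.2 CPM, and Elovl6, a fatty acid elongase gene, at 11.3 against 29.8 CPM. The fatty acid and lipid list had a median of 0.35, with 4 of 25 past 2-fold toward hairpin 2 and Abcg1 alone toward hairpin 1; total counts gave 7 and 1.

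Glycolysis genes differed in both directions. Pdk1, a pyruvate dehydrogenase kinase gene, stood at 484 CPM with hairpin 1 and 90.1 CPM with hairpin 2, with 104 to 223 CPM in the controls. Hk2 stood at 8.89 against 2.66 CPM, hairpin 1 against hairpin 2, and the glucose transporter gene Slc2a3 at 554 against 259 CPM. Ldha (lactate dehydrogenase) stood at 48.02 against 155 CPM, Pgm1 at 20.2 against 60.1 CPM and Eno3 at 6.396 against 16.4 CPM. The list had 5 of 25 past 2-fold toward hairpin 1 and 3 toward hairpin 2, and a median of -0.08. With total counts the split was reversed, with 3 toward hairpin 1 and 5 toward hairpin 2, and a median of 0.18. The hypoxia list had a median of -0.60 with 7 of 21 past 2-fold toward hairpin 1; with total counts these were -0.34 and 4 of 21. Vegfa stood at 63.96 against 21.2 CPM, Ddit4 at 49.6 against 15.5 CPM and Ankrd37 at 7.798 against 3.499 CPM, whereas Bnip3 (444 against 402 CPM) and Ndrg1 (33.4 against 44.2 CPM) did not differ past 2-fold and Ero1l (173 against 374 CPM) was higher with hairpin 2. The amino acid and one-carbon list had a median of -0.23, or 0.03 with total counts, with 5 of 25 past 2-fold toward hairpin 1, or 2 with total counts. Its members included Phgdh at 162 against 42.3 CPM and Psat1 at 232 against 100.02 CPM, both of serine synthesis.

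Immediate early genes included 3 of 17 past 2-fold toward hairpin 1, with a median of -0.33 that was -0.07 with total counts. Fosb stood at 9.73 CPM with hairpin 1 and 1.23 CPM with hairpin 2, and at 22.6 CPM with the Bloodlinc control hairpin, 0.734 CPM with the hnRNPU control hairpin and 1.23 CPM with the empty vector. Fos stood at 9.42 against 1.78 CPM, hairpin 1 against hairpin 2, with 33.5 CPM in the Bloodlinc control hairpin library, and Egr1 at 2.37 against 0.94 CPM. The Bloodlinc control hairpin library was the highest of the 5 for Fosb and Fos. Jun (11.6 against 20.2 CPM) and Ier2 (6.75 against 11.3 CPM) lay the other way by less than 2-fold. Among transporters and receptors, Trpv2, a calcium channel gene, stood at 10.9 against 90.04 CPM, Slc12a2 at 4.03 against 16.3 CPM, and Spns2, the sphingosine-1-phosphate exporter gene, at 17.5 CPM with hairpin 1 and 183 CPM with hairpin 2. The controls held 15.4 to 28.3 CPM of Spns2, near hairpin 1. Itgb1, the beta 1 integrin gene, stood at 180.5 CPM with hairpin 1 and 44.6 CPM with hairpin 2, and hairpin 2 was below the 119 to 194 CPM of the controls.

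Around Bloodlinc on chromosome 11, 15 of the 19 protein-coding genes within 250000 bases on either side were measured. Their median log2 difference was -0.09, with 2 past 2-fold toward hairpin 1 and 1 toward hairpin 2, near the share of 18.2% over all genes. With total counts the median was 0.17 and the counts were the same. Rundc3a (GRCm38 chromosome 11, 102393403 to 102402555, plus strand), whose near end lies 16383 bases from Bloodlinc, stood at 39.3 CPM with hairpin 1 and 4.05 CPM with hairpin 2, a log2 difference of -3.25 (-3.56 to -3.01). The controls held 16.4 to 32.3 CPM, so hairpin 2 lay below and hairpin 1 above all of them. Slc4a1, 9346 bases away on the other side, had -0.49, and Slc25a39, a mitochondrial glutathione carrier gene at 25965 bases, -0.44. Itga2b, at 76277 bases, had 1.75, and Nags, at 226072 bases, -1.33 from 36 and 18 counts. Ubtf (-0.09), Lsm12 (-0.02), Hdac5 (0.11) and Gpatch8 (0.14) lay close to 0.

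**Figure D5:**
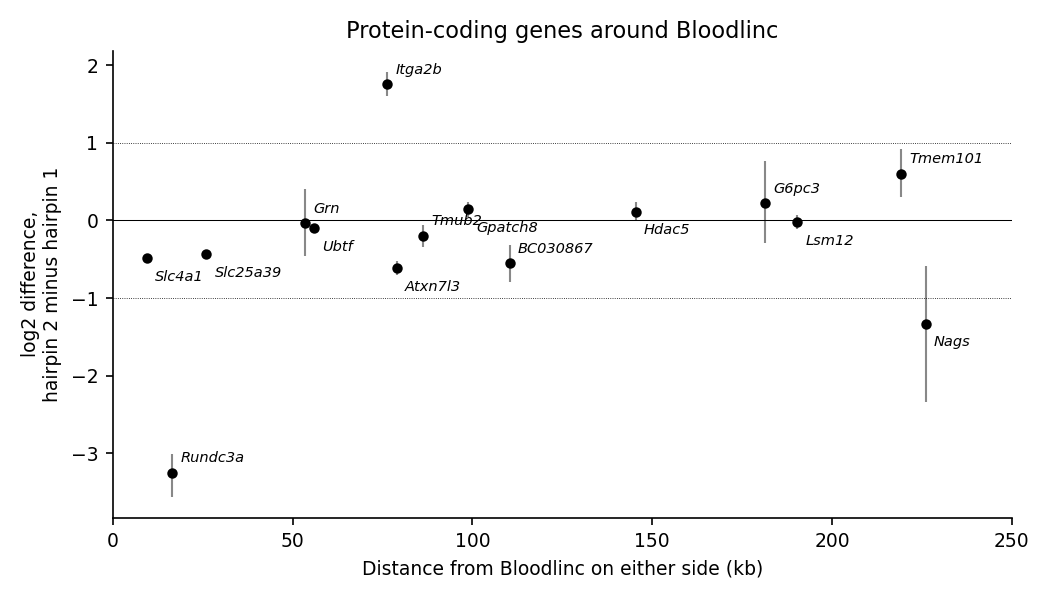
Log2 difference, hairpin 2 minus hairpin 1 (y axis), of the 15 measured protein-coding genes against their distance from Bloodlinc in kilobases on either side (x axis); bars are 95% counting intervals and dotted lines mark 2-fold. Rundc3a and Nags lie below and Itga2b above the 2-fold lines, and the other genes lie between them.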

How the data were processed

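Libraries were strand-specific (dUTP marking) and made after removal of ribosomal RNA, per the labels' protocols. The submitters' processing notes name TopHat2 2.0.11, HTSeq and the build mm9; the HTSeq version, annotation release and strand setting are not given in the sources used here, so reads of a gene and an antisense partner cannot be told apart. The authors deposited raw counts, 1 file per library, without normalization, with 37620 gene IDs and 5 summary lines, which were left out of library sizes. Symbols, biotypes and GRCm38 positions came from GENCODE M21, which held 87.4% of the IDs.

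TMM factors were computed over all 8 libraries with edgeR 4.0.16 (R 4.3.3) on 15355 genes, so that levels elsewhere share a scale; the control hairpin entered no hairpin 2 minus hairpin 1 difference. The log2 difference used a prior count of 2, over genes with a mean of at least 1 CPM in the 2 libraries, and was called past 2-fold. Intervals are 95% exact conditional binomial intervals of the count ratio and cover counting error only. With 1 library per hairpin no p-value was computed. The code was tested on simulated data.

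Named genes were Bloodlinc and Hnrnpu, the 20 protein-coding genes highest and the 20 lowest among those of at least 5 CPM with the whole interval past 2-fold, the 10 with the largest CPM difference in each direction, genes near Bloodlinc, and up to 4 members per list by size of difference; members named beyond these were chosen after their values were seen. The 58 gene lists and the 2 libraries were chosen with earlier results of these data known, and 12 list entries could not be matched. The direction threshold of 0.3 for list medians was set after the values were seen. Levels of a gene are compared between libraries, not between genes. There were 16 alternatives, covering scaling, prior count, filters, depth, threshold and counting error; DESeq2 1.42.0 supplied 1 set of size factors. Some genes that the rule names are not reported here.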

Additional observations from a re-analysis of the deposited data

How the results depend on the processing

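With total counts in place of TMM, 1804 genes were past 2-fold higher with hairpin 2 and 381 higher with hairpin 1, against 1167 and 743. The filter on low counts moved the calls higher with hairpin 2 to 1895 at 0.2 CPM, 647 at 5 CPM, 287 at 20 CPM and 2798 without a filter, and those higher with hairpin 1 to 354 at 20 CPM and 1878 without a filter. A 1.5-fold threshold gave 2261 and 1918, a 4-fold threshold 274 and 87, and a whole counting interval past 2-fold 728 and 437. TMM on the 2 libraries, upper quartile factors, DESeq2 size factors, TMM without mitochondrial and the 20 most abundant genes, other prior counts, protein-coding genes only and thinning hairpin 2 to the total counts in genes of hairpin 1 kept both counts within 1.5 times. At 20 CPM or more with TMM, calls toward hairpin 1 outnumbered those toward hairpin 2. The cause was not tested. Of 57 list medians, 3 of at least 0.3 in size changed sign: endothelial genes to -0.39 with TMM without mitochondrial and the 20 most abundant genes, immediate early genes to 0.28 at 20 CPM, and olfactory and vomeronasal receptor genes to 0.52 without a filter. Over the 57 lists and the alternatives that gave a value, the median moved by more than the typical counting error of the members in 64 cases and by less in 602. Over the 278 named genes the log2 difference left its counting interval in 217 cases and stayed inside it in 2007, and none past 2-fold changed sign. Depth limits genes of 1 to 5 CPM, whose intervals had a median width of 1.16 on the log2 scale. No paired analysis was possible because each group holds 1 library and the contrast has no replicates; for the same reason no replicate could be left out.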
